A study of Mus musculus with 8 samples.

Results

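A set of 10 genes of fat cells and of triglyceride breakdown was followed in the quadriceps muscle of tumor-bearing mice: Adipoq, Plin1, Lep, Cfd, Cidec, Fabp4, Retn, Pck1, Lpl and Pnpla2. They were chosen by symbol, all 10 were present among the 53819 gene symbols of the count table, and all 10 were among the 14070 genes counted deeply enough to be tested. The tumor group was 4 wild type C57BL/6J mice, 8 weeks old at the start, that received 500000 cells of the head and neck squamous cell carcinoma line B0092 in 200 µL by subcutaneous injection at the nape. The control group was 4 wild type C57BL/6J mice of the same age that received the vehicle, phosphate-buffered saline. Muscle was taken on day 36, when weight loss had reached about 10%, so the model rests on 1 tumor line and 1 time. Each library is 1 mouse and is named here by its group and replicate number; the sex of the mice is not given in the sources used here.

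Adipocytes lie between the fibres and fascicles of skeletal muscle in small numbers and store triglyceride in a single large droplet. Perilipin 1 (Plin1) and CIDEC coat that droplet. Breakdown begins with adipose triglyceride lipase (Pnpla2, also called ATGL), which muscle fibres also make, and goes on through hormone-sensitive lipase and monoglyceride lipase. The released fatty acids are bound by FABP4, and part of them is built back into triglyceride on glycerol made through PEPCK (Pck1). Lipoprotein lipase (Lpl) works on the capillary wall and brings in fatty acids from circulating lipoproteins; both fat cells and oxidative muscle fibres supply it. Adiponectin (Adipoq), leptin (Lep), adipsin (Cfd) and resistin (Retn) are secreted by fat cells in mice. Loss of fat through lipolysis accompanies muscle wasting in cancer cachexia.

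The labelled tissue was checked against its own markers. The 12 muscle fibre genes examined, such as Acta1 and Ckm, summed to between 113825 and 212741 CPM (counts scaled to an equal library size) in tumor libraries and between 158201 and 216764 CPM in controls. Library totals lay between 28436254 and 36139478 counts. Of 12 squamous epithelial markers, which the tumor line could carry, 7 had 0 counts in every library, the basal keratins Krt5 and Krt14 among them, and 3 could be tested; Trp63, a nuclear factor of squamous cells, rose 3.01-fold (adjusted p = 0.00484, edgeR). Of the 6 tested blood cell genes 1 rose, S100a8 (adjusted p = 0.044, lost without any 1 of 7 mice, all but control mouse 3, and with the replicate block at 0.0924), and 1 of the 12 fibre genes fell, Acta1 (2.35-fold, adjusted p = 0.0368, lost without any 1 of 6 mice, all but tumor mice 1 and 4). In the edgeR test of all 8 libraries 33.3% of the tested squamous genes, 16.7% of the blood genes and 8.33% of the fibre genes were called, against 19.8% of all genes. The fibre list moved to 1 higher and 4 lower genes without tumor mouse 1, where 19.8% of all genes were called. It moved to 2 higher and 4 lower with DESeq2, where 26.0% of all genes were called. Tumor mouse 2 and control mouse 4 stood apart from their groups in fibre makeup: Myh1, Myh2 and Myh7, the myosins of slower fibres than Myh4, made up 19.7% of adult myosin CPM in tumor mouse 2 and 1.08% to 4.76% in the other tumor mice, and 35.4% in control mouse 4 and 2.03% to 11.5% in the other controls.

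Regulatory sequence was at hand for 8 of the 10 genes (RefSeq, GRCm38.p6), and the 250 bases before each listed start were searched on both strands for letters bound by regulators of fat cells. The stretches with a match, which lie before 4 of the 8 genes, are shown, and capitals mark the matches. A match did not set apart the genes whose levels moved together below, since Adipoq, Cfd and Retn moved together and held no match. For Plin1, Lep and Cidec the capitals are the C/EBP letters TTGCNNAA, and for Pck1 they are the cyclic AMP response element letters TNACGTCA.
Plin1, chr7:79732777-79733026, minus strand: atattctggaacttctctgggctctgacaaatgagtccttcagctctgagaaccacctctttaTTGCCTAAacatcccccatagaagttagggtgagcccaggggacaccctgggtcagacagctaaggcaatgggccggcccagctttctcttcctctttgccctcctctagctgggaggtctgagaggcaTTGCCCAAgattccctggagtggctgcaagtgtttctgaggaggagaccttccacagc
Lep, chr6:29059971-29060220, plus strand: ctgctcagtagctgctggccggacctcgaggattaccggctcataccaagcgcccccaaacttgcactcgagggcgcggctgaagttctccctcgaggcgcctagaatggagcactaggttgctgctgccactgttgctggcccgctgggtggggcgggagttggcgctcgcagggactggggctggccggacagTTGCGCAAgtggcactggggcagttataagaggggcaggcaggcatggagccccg
Cidec, chr6:113434765-113435014, minus strand: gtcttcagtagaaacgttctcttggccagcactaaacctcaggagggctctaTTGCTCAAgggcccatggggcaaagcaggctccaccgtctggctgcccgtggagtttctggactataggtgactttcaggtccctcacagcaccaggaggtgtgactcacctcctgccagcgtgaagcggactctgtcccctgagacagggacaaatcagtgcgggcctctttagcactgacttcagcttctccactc
Pck1, chr2:173152823-173153072, plus strand: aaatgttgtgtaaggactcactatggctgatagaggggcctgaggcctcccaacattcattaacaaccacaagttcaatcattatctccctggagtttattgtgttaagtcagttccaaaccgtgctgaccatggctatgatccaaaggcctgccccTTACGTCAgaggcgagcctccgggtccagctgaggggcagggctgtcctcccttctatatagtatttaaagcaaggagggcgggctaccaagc
The C/EBP letters stood 58 to 51 and 187 to 180 bases before the Plin1 start, 55 to 48 bases before the Lep start and 198 to 191 bases before one of the 2 Cidec starts. The Pck1 match stood 93 to 86 bases before its start. The Lep match reads the same on both strands. Over all 32851 starts listed for mouse genes, 9.56% held the C/EBP letters in the same window and 2.52% held the response element. The PPAR response element, a pair of AGGNCA copies with 1 base between (0.338% of all starts), the FOXO letters TGTTTAC (3.17%) and the box TATAAA (12.4%) were not found before any of the 8 genes in this window. The windows of Adipoq, Cfd, Retn and Pnpla2 held none of the motifs searched; Fabp4 and Lpl were not searched. A match is a description of the letters and not a measured binding site.

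With all 8 libraries none of the 10 genes passed the test, and levels within each group spanned a wide range. Of the 10, 8 had a negative fitted difference, between -0.59 and -1.4 on the log2 scale, and Cidec (0.03) and Pnpla2 (0.70) had a positive one. The count was 0 of 10 at an adjusted p under 0.05, where 19.8% of all 14070 genes were called (edgeR quasi-likelihood test, Benjamini-Hochberg over all genes). DESeq2 and limma-voom also called 0, and 0 of 10 had an unadjusted p under 0.05 in the edgeR test, against 35.0% of all genes. Groups without overlap in CPM were found for 0 of the 10, against 25% of all genes. Over the 10 genes the median was -0.86 on the log2 scale, and over all tested genes it was 0.00. By direction, 11.0% of all genes were called higher and 8.73% lower. The other settings, which called 0 of the 10 unless stated below, called shares of all genes of 19.4% and 19.3% (size factors of DESeq2 and upper-quartile scaling), 19.4% (scaling without the most abundant genes), 9.02% (no filter), 26.2% (stricter filter), 26.0% (DESeq2), 19.7% (limma-voom) and 13.7% (replicate block, 1 of the 10 called). With 1 mouse left out they were 19.8%, 19.4%, 8.3% and 18.5% for tumor mice 1 to 4 and 7.75%, 9.58%, 12.9% and 15.8% for control mice 1 to 4. In whole muscle, the number of fat cells in a sample and the amount of these RNAs per fat cell cannot be told apart. How much fat was taken along with each muscle is not given in the sources used here.

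**Figure D1:**
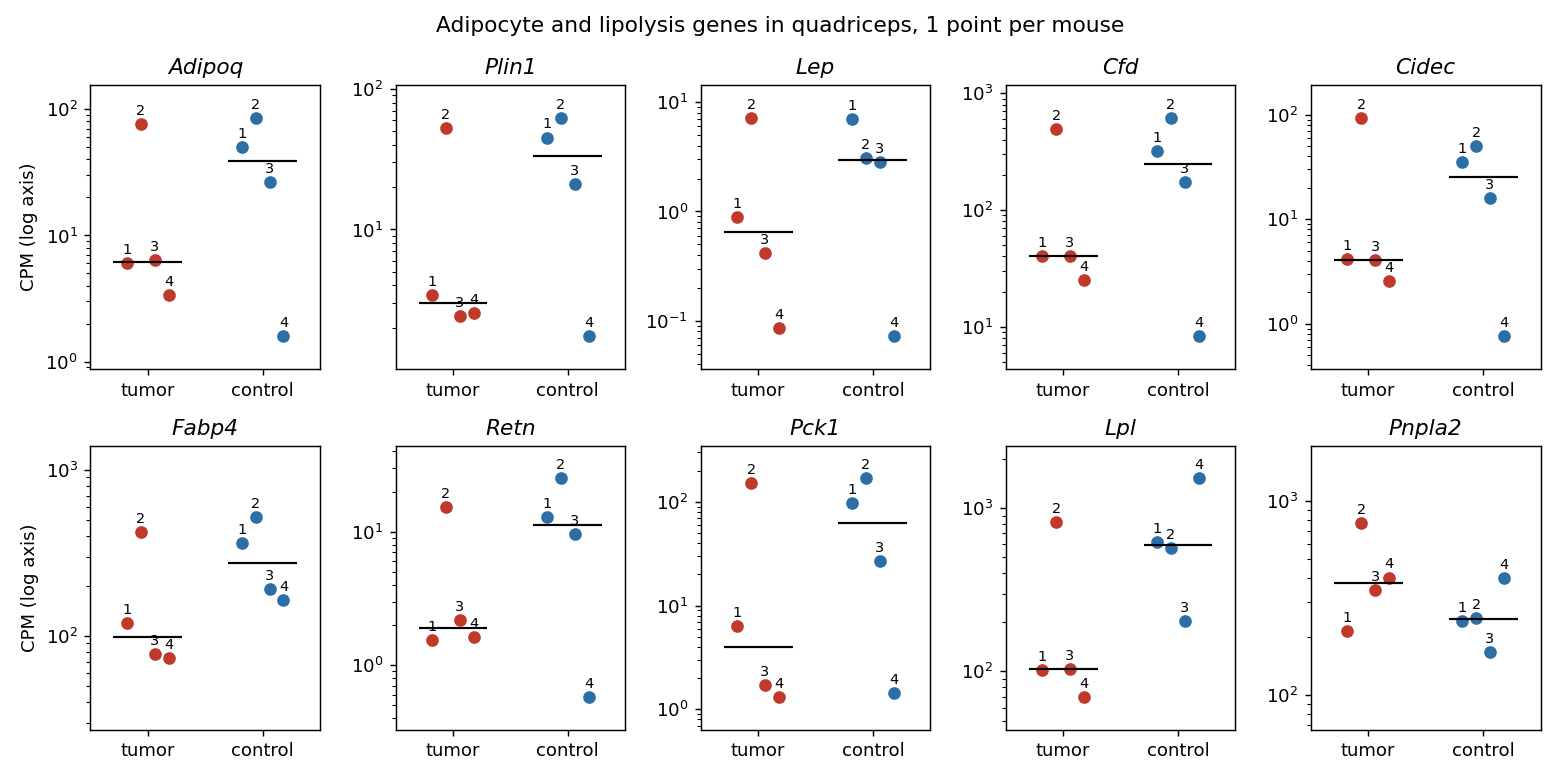
CPM of the 10 genes (vertical log axes) in tumor and control mice, 1 point per mouse with its replicate number and a line at the group median. Tumor mouse 2 is the highest tumor mouse in all 10 panels, and control mouse 4 is the lowest control in 8 of them, all but Lpl and Pnpla2.

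Adiponectin showed the arrangement that most of the genes shared. Adipoq stood at 6.02, 76.5, 6.39 and 3.39 CPM in tumor mice 1 to 4, against 50.6, 85.7, 26.6 and 1.59 CPM in control mice 1 to 4. Tumor mouse 2 lay among the upper controls, control mouse 4 lay below every tumor mouse, and the groups overlapped. The fitted log2 fold change was -0.84 ± 1.13 (SE, n = 4 each, adjusted p = 0.641, edgeR).

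Cfd and Retn had the same high and low mice as Adipoq. Cfd, the complement protease adipsin, stood at 40.2, 494, 40.3 and 25.2 CPM in tumor mice 1 to 4 and at 323, 617, 175 and 8.30 CPM in control mice 1 to 4. Retn (resistin) stood at 1.55, 15.4, 2.18 and 1.64 CPM in tumor mice and at 12.9, 25.1, 9.69 and 0.580 CPM in controls. For both genes tumor mice 1, 3 and 4 lay below control mice 1, 2 and 3, and control mouse 4 lay lowest of all. The log2 fold changes were -0.90 ± 1.17 for Cfd (adjusted p = 0.623) and -1.22 ± 0.98 for Retn (adjusted p = 0.406, SE, edgeR).

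Leptin, which signals fat stores to the brain, was the rarest of the 10 RNAs. Lep had 27, 222, 13 and 3 counts in tumor mice 1 to 4, against 200, 93, 97 and 2 counts in control mice 1 to 4. The 3 counts of tumor mouse 4 have an exact 95% Poisson interval of 0.619 to 8.77 and the 2 counts of control mouse 4 one of 0.242 to 7.22, which cover counting error only. At this depth these 2 mice could not be told apart, and both lay below the other 6. Unlike Adipoq, Lep was as high in control mouse 1 (6.96 CPM) as in tumor mouse 2 (7.21 CPM), and control mouse 2 had 3.08 CPM. The log2 fold change was -0.59 ± 1.19 (adjusted p = 0.764, edgeR), and it was 0.11 without control mouse 1.

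The droplet coat genes had the same high and low mice. Plin1 stood at 3.42, 52.9, 2.41 and 2.56 CPM in tumor mice 1 to 4, against 45.1, 62.5, 21.2 and 1.74 CPM in control mice 1 to 4. Cidec, which enlarges droplets by passing lipid between them, stood at 4.15, 93.7, 4.08 and 2.56 CPM in tumor mice and at 35.1, 50.4, 15.9 and 0.761 CPM in controls. Tumor mouse 2 had the highest Cidec level of all 8 mice, whereas its Plin1 level was below that of control mouse 2. The log2 fold change was -1.09 ± 1.15 for Plin1 (adjusted p = 0.538) and 0.03 ± 1.26 for Cidec (adjusted p = 0.988, edgeR), and the sign of the Cidec value changed with the scaling (-0.08 with upper-quartile scaling) and with limma-voom (-0.68).

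Pck1, the enzyme that feeds glycerol synthesis in fat, had the widest spread of the 10. It stood at 6.35, 151, 1.70 and 1.32 CPM in tumor mice 1 to 4, against 98.2, 168, 26.7 and 1.45 CPM in control mice 1 to 4. The highest mouse was 127-fold above the lowest. The 3 mice tumor 3, tumor 4 and control 4 lay below 2 CPM, and the groups overlapped. The log2 fold change was -0.88 ± 1.51 (adjusted p = 0.719, edgeR).

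Fabp4, Lpl and Pnpla2 varied less with Adipoq than the other genes did, and not to the same degree. The Pearson correlation of log2 CPM with Adipoq was 0.84 for Fabp4, 0.32 for Lpl and -0.06 for Pnpla2. Cells other than adipocytes also make these RNAs, and the part of such cells was not tested. Fabp4 is a fatty acid carrier of fat cells that capillary endothelium and macrophages also contain. It stood at 120.3, 423, 77.9 and 73.1 CPM in tumor mice 1 to 4, against 361, 521, 192 and 165 CPM in control mice 1 to 4. Control mouse 4 had 165 CPM of Fabp4 with 1.59 CPM of Adipoq, and only tumor mouse 2 overlapped the controls. The 12 endothelial markers examined summed to 205, 239, 159 and 129 CPM in tumor mice and to 266, 238, 223 and 346 CPM in controls, highest in control mouse 4, and their part in the Fabp4 levels was not tested. The 12 macrophage markers summed to between 56.7 and 202 CPM in tumor mice and between 76.5 and 133 CPM in controls. The log2 fold change of Fabp4 was -0.84 ± 0.59 (adjusted p = 0.347, edgeR).

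Lpl stood at 103, 824, 103 and 69.8 CPM in tumor mice 1 to 4, against 618, 569, 203 and 1520 CPM in control mice 1 to 4. Its highest mouse was control 4, the mouse with the least Adipoq, Cfd, Cidec, Plin1 and Retn. The 2 Lep counts of that mouse could not be told apart from the 3 of tumor mouse 4. Control mouse 4 also had the largest share of Myh1, Myh2 and Myh7 in adult myosin CPM (35.4%). The mouse with the next highest Lpl level, tumor 2, had the next largest share (19.7%). The other mice kept this order apart from tumor mouse 4. That mouse had a share of 4.76% and the lowest Lpl level (69.8 CPM), where control mouse 2 had 4.87% and 569 CPM. The part of fibre type in the Lpl levels was not tested. Tumor mice 1, 3 and 4 lay below all 4 controls. The log2 fold change was -1.4 ± 0.85 (adjusted p = 0.271, edgeR).

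Pnpla2 was the only one of the 10 genes with a fitted rise of more than 0.1, and it did not pass the test. It stood at 215, 766, 349 and 403 CPM in tumor mice 1 to 4, against 242, 251, 167 and 403 CPM in control mice 1 to 4. Tumor mouse 2 was the highest of the 8 mice by a wide margin, tumor mice 1 and 3 lay within the range of the controls, and tumor mouse 4 was level with control mouse 4, the highest control. The log2 fold change was 0.70 ± 0.38 (adjusted p = 0.219, edgeR), and it was 0.24 without tumor mouse 2.

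The calls depended on tumor mouse 2 and control mouse 4. Without tumor mouse 2, the test called 4 of the 10 genes lower: Plin1 (log2 fold change -3.58 ± 0.94, adjusted p = 0.0312), Fabp4 (-1.81 ± 0.41, adjusted p = 0.0197), Pck1 (-4.60 ± 1.34, adjusted p = 0.0436) and Lpl (-3.02 ± 0.60, adjusted p = 0.0126, SE, edgeR). In that fit 10.1% of all genes were called lower. Adipoq (-3.00 ± 0.98, adjusted p = 0.0613), Retn (adjusted p = 0.0592), Cfd (adjusted p = 0.0718), Cidec (adjusted p = 0.0723) and Lep (adjusted p = 0.102) did not pass. Without control mouse 4 alone 0 of 10 were called, where 15.8% of all genes were. Without both mice 9 of 10 were called lower, all but Pnpla2, with log2 fold changes between -2.0 (Fabp4) and -4.99 (Pck1), where 10.1% of all genes were called lower and 20.7% in either direction. Both mice were already known from other genes of these data to stand apart. Tumor mouse 2 is the highest tumor mouse for all 10 genes. Control mouse 4 is the lowest control for 8 of them and lies below every tumor mouse for 6, for Lep by 2 counts against 3. For those 8, leaving both out moves the difference downward by construction. For Lpl, where control mouse 4 is the highest control, the log2 fold change was -3.02 without tumor mouse 2 and -2.35 without both. For Pnpla2 it was 0.70 with all 8 libraries and 0.54 without both. None of the 4 tumor and 4 control mice can be set aside on the labels.

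**Figure D2:**
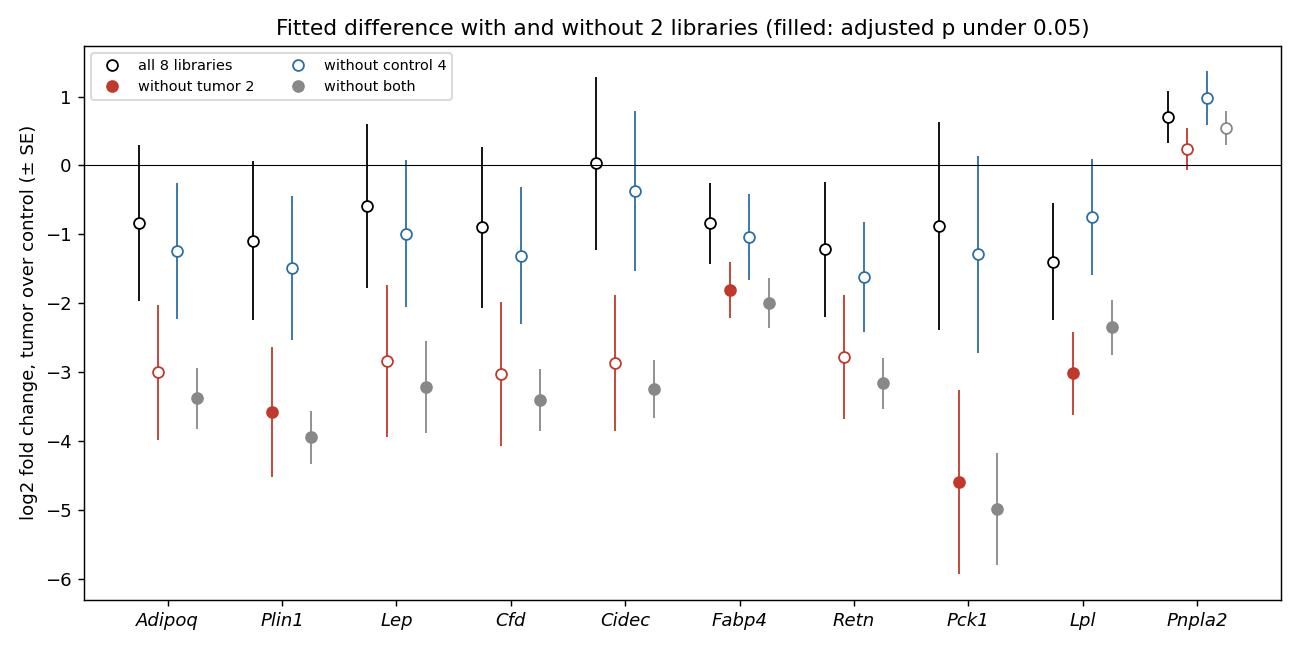
Fitted log2 fold change of tumor over control with its SE for the 10 genes, with all 8 libraries, without tumor mouse 2, without control mouse 4 and without both; filled points have an adjusted p under 0.05. No point is filled with all 8 libraries, 4 are filled without tumor mouse 2 and 9 are filled without both mice.

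Within a library Cfd kept close to a fixed ratio to Adipoq while both levels spanned a wide range, and the ratios of the other genes varied more. Cfd spanned 74.4-fold over the 8 mice and Adipoq 53.8-fold, yet the ratio of Cfd to Adipoq counts spanned 1.43-fold. That ratio was 6.67, 6.46, 6.31 and 7.44 in tumor mice 1 to 4, against 6.37, 7.20, 6.56 and 5.20 in control mice 1 to 4. A ratio within a library does not depend on the scaling between libraries. The ratio to Adipoq spanned 2.41-fold for Retn, 2.57-fold for Cidec, 2.89-fold for Plin1, 5.80-fold for Lep and 7.39-fold for Pck1. It spanned 18.8-fold for Fabp4, 86.5-fold for Pnpla2 and 144-fold for Lpl.

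The hormones per unit of Adipoq did not differ between groups by more than the spread between mice. The mean log2 ratio of Cfd to Adipoq was 2.74 ± 0.10 in tumor mice and 2.65 ± 0.20 in controls (SD, n = 4 each), a difference of 0.09 ± 0.11 (SE, exact permutation p = 0.457, two-sided). The ratio of Lep to Adipoq averaged -3.78 ± 0.99 in tumor mice and -3.76 ± 0.88 in controls, a difference of -0.02 ± 0.66 (exact permutation p = 0.971). The ratio of Retn to Adipoq averaged -1.71 ± 0.55 in tumor mice and -1.66 ± 0.26 in controls, a difference of -0.05 ± 0.30 (exact permutation p = 0.829). These 3 ratios were tested, all with a Benjamini-Hochberg adjusted p of 0.971, and 0.0286 is the smallest p that 4 against 4 mice can give. The SE of the Lep difference leaves room for a change of more than 1 on the log2 scale in either direction.

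Ratios of the other genes were described without a test. Pck1 per Adipoq was 1.05, 1.97, 0.266 and 0.390 in tumor mice 1 to 4, against 1.94, 1.96, 1.00 and 0.909 in control mice 1 to 4. Tumor mice 3 and 4 had the lowest values of the 8, while tumor mouse 2 was level with control mice 1 and 2. Plin1 per Adipoq lay between 0.377 and 0.754 in tumor mice and between 0.729 and 1.09 in controls, and Cidec per Adipoq between 0.638 and 1.23 in tumor mice and between 0.477 and 0.693 in controls. Pnpla2 per Adipoq was 35.6, 10.0, 54.6 and 119 in tumor mice and 4.78, 2.93, 6.28 and 253 in controls, so every tumor mouse lay above control mice 1, 2 and 3 and below control mouse 4.

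**Figure D3:**
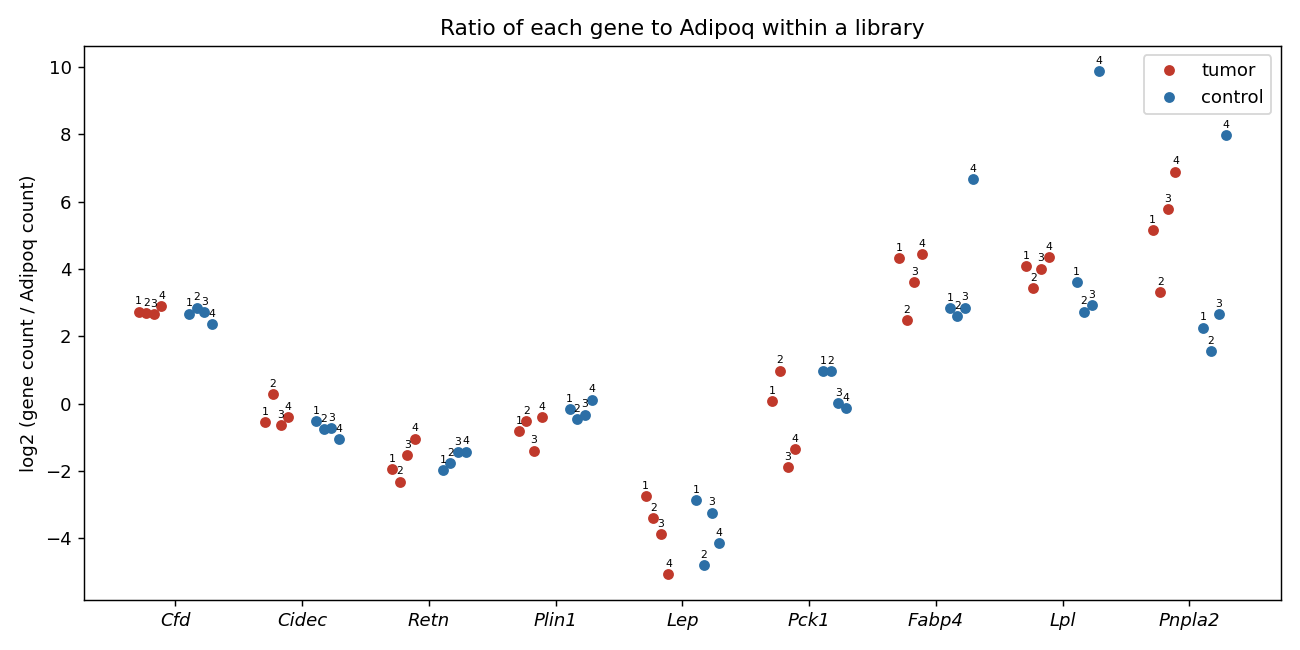
Log2 ratio of the count of each of 9 genes to the Adipoq count of the same library (vertical axis), tumor mice left and control mice right within each gene, numbered by replicate. Cfd points lie in a band between 2.37 and 2.89, while Lpl and Pnpla2 reach 9.88 and 7.97 in control mouse 4.

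The genes most like Adipoq in their pattern were looked for among 11229 genes by Pearson correlation of log2 CPM over the 8 libraries, given as a description with no test. Control mouse 4 and tumor mice 1, 3 and 4 have low levels of Adipoq and the other 4 mice high ones, so this measure mostly reflects that division. The closest were Slc36a2 (an amino acid transporter, r = 0.997), Cdo1 (cysteine dioxygenase, 0.987), Trf (transferrin, 0.986), the carboxylesterase gene Ces1f (0.984), the phosphatase gene Ppm1m (0.978) and the beta-3 adrenergic receptor gene Adrb3 (0.975). Slc36a2 stood at 1.22, 16.8, 0.900 and 0.545 CPM in tumor mice 1 to 4, against 9.22, 14.6, 4.51 and 0.181 CPM in control mice 1 to 4. By the same measure the genes closest to Lpl, the member with the highest mean CPM, were Ivd (isovaleryl-CoA dehydrogenase, 0.988), Zfp691 (0.987), Apol6 (0.985), the pantothenate kinase gene Pank1 (0.984), the smooth muscle myosin gene Myh11 (0.983) and the natriuretic peptide receptor gene Npr3 (0.976). None of the 6 genes near Lpl was among the 6 near Adipoq.

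**Figure D4:**
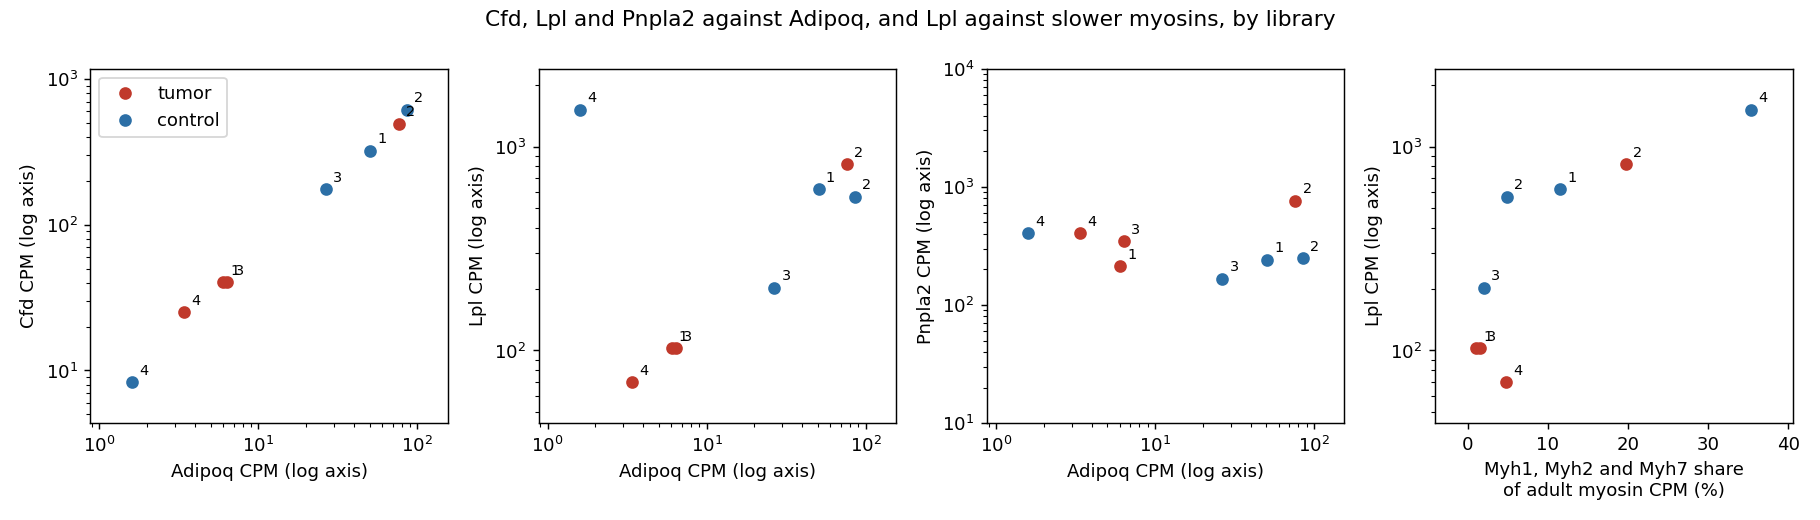
CPM of Cfd, Lpl and Pnpla2 against CPM of Adipoq (log axes, left 3 panels) and of Lpl against the share of Myh1, Myh2 and Myh7 in adult myosin CPM (right panel), 1 numbered point per mouse. Cfd lies along a line with Adipoq from 8.30 to 617 CPM, whereas control mouse 4 combines 1.59 CPM of Adipoq with 1520 CPM of Lpl and 403 CPM of Pnpla2.

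Levels of different genes were compared per length, as CPM per kilobase of transcript. In tumor mice Pnpla2 was first with 241 ± 131 (SD, n = 4), followed by Fabp4 (194 ± 187), Cfd (163 ± 249), Lpl (66.8 ± 89.1), Adipoq (17.9 ± 27.6), Cidec (15.2 ± 26.2), Pck1 (15 ± 27.7), Plin1 (5.44 ± 8.90), Retn (4.55 ± 5.96) and Lep (0.660 ± 1.04). In controls the order was Fabp4 (346 ± 185), Cfd (304 ± 280), Lpl (177 ± 136), Pnpla2 (148 ± 55.1), Adipoq (31.8 ± 27.7), Pck1 (27.7 ± 28.2), Cidec (14.9 ± 12.6), Plin1 (11.6 ± 9.47), Retn (10.6 ± 8.90) and Lep (0.991 ± 0.870). Neighbours in either order differed by less than the larger of their 2 SDs, apart from Pnpla2 and Adipoq, and Retn and Lep, in controls. Pnpla2, first in tumor mice, stood behind Fabp4, Cfd and Lpl in controls, and no test of that order was made.

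Other genes of the fat cell were called lower at about the share of all genes. Of 24 further adipocyte genes, all tested, 0 rose and 2 fell, and the median log2 fold change was -1.06. The share called was 8.33%, against 8.73% of all genes lower and 19.8% in either direction. Scd1, a fatty acid desaturase, was 8.64-fold lower (log2 fold change -3.11 ± 0.95, edgeR adjusted p = 0.0464), at 68.2, 153, 39.7 and 39.6 CPM in tumor mice 1 to 4, against 858, 1369, 345 and 24.3 CPM in control mice 1 to 4. Tumor mouse 2 had less Scd1 than control mice 1, 2 and 3, although its Adipoq level was among theirs. The Scd1 call was lost without any 1 of 6 mice, all but tumor mouse 2 and control mouse 4 (adjusted p up to 0.128). It was also lost with all 8 mice in limma-voom (-2.29, adjusted p = 0.148) and with the replicate block (-2.51, adjusted p = 0.0719). Car3, a carbonic anhydrase abundant in both fat and slow muscle, fell 2.06-fold (adjusted p = 0.0179) with no overlap between groups, and lost the call without tumor mouse 3, control mouse 1 or control mouse 2 (adjusted p up to 0.064). Without tumor mouse 2 this list had 12 lower genes (10.1% of all genes were lower), among them Pparg and the hormone-sensitive lipase gene Lipe, neither called with all 8 mice. Tumor mouse 2 had the highest sum of this list among tumor mice (3064 CPM, against 1129 to 1934). Leaving it out therefore lowers the tumor mean of that sum by construction. A sum does not speak for each gene, and its part in the 12 lower calls was not tested. Of 12 genes of brown or beige fat 10 were tested, of which 0 rose and 2 fell. That is 2 of 10 called, against 19.8% of all genes in either direction and 8.73% lower. They were Cox7a1 (adjusted p = 0.0298, edgeR), a respiratory subunit that muscle makes too, and Dio2 (adjusted p = 0.0433), which makes active thyroid hormone. Cox7a1 lost the call without tumor mouse 3 or control mouse 1, 2 or 4 (adjusted p up to 0.0898) and Dio2 without any mouse but tumor mouse 2 (adjusted p up to 0.123). Dio2 was also not called with no filter (adjusted p = 0.0616) or in limma-voom (0.0562). This list had 7 lower genes without tumor mouse 2 and 6 without both mice, where 10.1% of all genes were lower in each fit. Tumor mouse 2 also had the highest sum of this list among tumor mice (307 CPM), so the same limits hold. The list had 4 lower genes with DESeq2 and 0 without tumor mouse 3 or control mouse 1, 2 or 4. Ucp1, which defines brown fat, was too low to be tested.

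Few partners of Pnpla2 in lipolysis passed the test with all 8 mice, which does not show that the others were unchanged. Of 28 tested genes of the list 1 rose and 1 fell (7.14% called, against 19.8% of all genes). The fitted difference was negative for 21 of the 28, and the median log2 fold change was -0.31. G0s2, which binds and inhibits the lipase made by Pnpla2, fell 3.14-fold (log2 fold change -1.65 ± 0.50, SE, adjusted p = 0.0451, edgeR), to 2.7, 8.70, 1.48 and 3.39 CPM in tumor mice 1 to 4, against 19.5, 8.04, 9.23 and 14.3 CPM in control mice 1 to 4. Tumor mouse 2 lay just above control mouse 2, and the other tumor mice lay below all controls. That call was lost without any 1 of 7 of the mice, all but tumor mouse 2 (adjusted p up to 0.132). With the replicate block it had an adjusted p of 0.0504. Without tumor mouse 2 the list had 1 higher and 12 lower genes, where 10.1% of all genes were lower. That mouse had the highest sum of this list among tumor mice (2288 CPM, against 1039 to 1795). Leaving it out lowers the tumor mean of that sum by construction. A sum does not speak for each gene, and its part in the 12 lower calls was not tested.

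Around Lpl, 15 of 21 listed genes were tested, of which 1 rose and 3 fell (26.7% called, against 19.8% of all genes), and the median log2 fold change was -0.33. Fabp5, a fatty acid carrier, fell 2.74-fold (-1.45 ± 0.27, SE, adjusted p = 0.0080, edgeR) to 2.04, 2.79, 2.35 and 3.47 CPM in tumor mice 1 to 4, against 8.60, 8.30, 8.10 and 4.2 CPM in control mice 1 to 4. The fatty acid transporter gene Slc27a4 fell 1.48-fold (adjusted p = 0.0269) and Pcsk6, a protease that can cleave the lipase, fell 1.75-fold (adjusted p = 0.0458). Vldlr, a lipoprotein receptor, rose 1.73-fold (adjusted p = 0.0485). Fabp5 kept its call without any single mouse, whereas Vldlr lost it without any 1 of 7 mice, all but tumor mouse 4 (adjusted p up to 0.133). With all 8 mice Vldlr also lost it with DESeq2 size factors (adjusted p = 0.05), upper-quartile scaling (0.0623), scaling without the most abundant genes (0.0516), limma-voom (0.057) and the replicate block (0.1). Slc27a4 lost it without tumor mouse 3 or control mouse 1, 3 or 4 (up to 0.0866) and with the block (0.071), and Pcsk6 without tumor mouse 3 or 4 or control mouse 1, 2 or 4 (up to 0.131) and in limma-voom (0.0626).

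Around Pck1, 19 of 20 genes of glycerol and triglyceride synthesis were tested, of which 1 rose and 3 fell (21.1% called, against 19.8% of all genes), and the median log2 fold change was -0.33. Lpin2, a phosphatidate phosphatase, rose 6.17-fold (2.63 ± 0.29, SE, adjusted p = 0.00233, edgeR), to 7.87, 18.1, 21.1 and 16.8 CPM in tumor mice 1 to 4, against 2.23, 2.48, 2.55 and 3.08 CPM in control mice 1 to 4. It had no overlap between groups and kept its call without any single mouse. Mdh1, the cytosolic malate dehydrogenase gene, fell 2.64-fold (adjusted p = 0.0134), the dicarboxylate carrier gene Slc25a10 3.61-fold (adjusted p = 0.0165) and the acyltransferase gene Agpat2 4.04-fold (adjusted p = 0.0325). Mdh1 lost its call without tumor mouse 3 (adjusted p = 0.051), Slc25a10 without tumor mouse 3 or control mouse 1 (up to 0.0593) and Agpat2 without tumor mouse 1, 3 or 4 or control mouse 1 or 2 (up to 0.0936).

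Of 22 tested factors of fat-cell formation 3 rose and 3 fell (27.3% called, against 19.8% of all genes), and the median log2 fold change was -0.05. Cebpd, which acts early in that programme, rose 12.2-fold (3.61 ± 0.62, SE, adjusted p = 0.00613, edgeR) and kept its call without any single mouse. Klf15 rose 2.23-fold (adjusted p = 0.0282), and Klf4 (adjusted p = 0.0179) and Klf2 (adjusted p = 0.0269) fell 1.97-fold and 1.90-fold. Klf4 lost its call without tumor mouse 3, control mouse 1 or control mouse 2 (adjusted p up to 0.0631), Klf2 also without control mouse 4 (up to 0.0856), and Klf15 without tumor mouse 2 or 3 or control mouse 1, 2 or 3 (up to 0.0864) and with the replicate block (0.0679). Pparg, the central factor of the mature fat cell, stood at 1.38, 8.99, 0.771 and 0.890 CPM in tumor mice 1 to 4, against 2.68, 5.33, 2.00 and 1.81 CPM in control mice 1 to 4 (log2 fold change 0.02 ± 0.77, adjusted p = 0.986). Of 15 genes for receptors and signalling of the fat-cell hormones 2 rose and 0 fell (13.3% called, against 19.8% of all genes): Prkaa2, a catalytic subunit of the energy-sensing kinase AMPK, 1.49-fold (adjusted p = 0.0243) and Igf1r 1.79-fold (adjusted p = 0.0389). Prkaa2 lost its call without tumor mouse 3 or control mouse 1, 2 or 4 (up to 0.0868), and Igf1r without any 1 of 6 mice, all but tumor mouse 4 and control mouse 4 (up to 0.114) and with the block (0.0653). The adiponectin receptor genes Adipor1 (log2 fold change 0.31 ± 0.15, adjusted p = 0.166) and Adipor2 (0.38 ± 0.15, adjusted p = 0.0991) did not pass.

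Markers of other cells of the muscle were also examined. Of 12 endothelial markers 0 rose and 5 fell (41.7% called, against 19.8% of all genes in either direction and 8.73% lower), and the median log2 fold change was -0.60. The 4 with the smallest p, all lower, were Kdr (3.67-fold), Emcn (2.65-fold), Egfl7 (1.60-fold) and Tek (1.70-fold). Of 12 markers of fibro-adipogenic cells, the progenitors of fat cells in muscle, 0 rose and 3 fell, with a median of -0.40. The share called was 25%, against the same 19.8% in either direction and 8.73% lower. The 3 were Pi16 (3.57-fold), Col15a1 (5.25-fold) and Pdgfrb (1.58-fold). Of 12 macrophage markers 1 rose (8.33% called, against 11.0% of all genes higher), Cd163 (2.07-fold). Without tumor mouse 2, 4 of the 12 rose, where 1331 of the 14361 genes tested in that fit were higher. That mouse had the lowest macrophage sum of the tumor mice (56.7 CPM, against 148 to 202). Leaving it out raises the tumor mean of that sum by construction, and its part in the 4 calls was not tested. Tek lost its call without tumor mouse 3 or control mouse 1 (adjusted p up to 0.0799), and Pdgfrb without any 1 of 6 mice, all but tumor mice 1 and 2 (up to 0.113) and with the block (0.0785). Unlike Adipoq, Kdr, Emcn, Egfl7, Tek, Pi16, Col15a1, Pdgfrb and Cd163 had no overlap between groups, tumor mouse 2 and control mouse 4 included. They were named for having the smallest p past the threshold in their lists, and that choice favours groups without overlap. The contrast with Adipoq therefore does not describe the lists as a whole or these cell types. The part of these cells in the levels of the 10 genes was not tested.

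**Figure D5:**
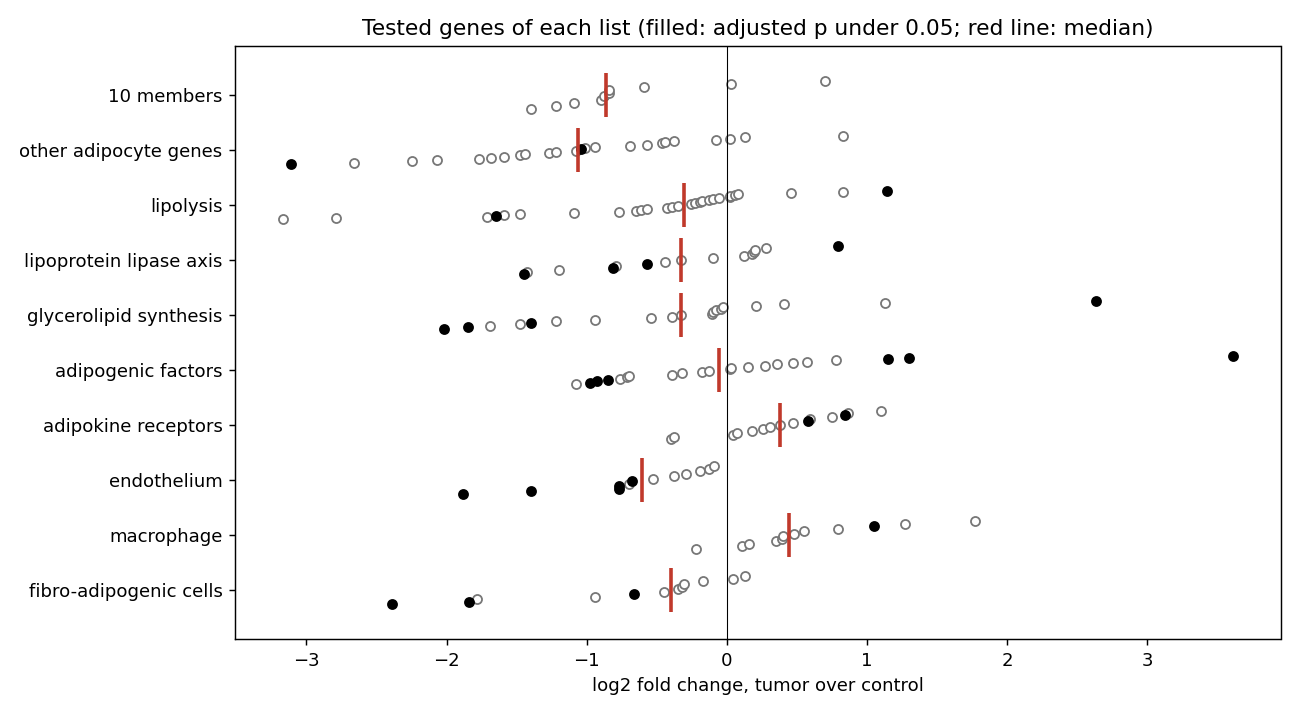
Log2 fold change of tumor over control (horizontal axis) for the tested genes of each list, 1 point per gene, filled at an adjusted p under 0.05, with a red line at the list median. The 10 members have a median of -0.86 and no filled point, and the other adipocyte genes have a median of -1.06 and 2 filled points.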

How the data were processed

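Per the labels' protocols, quadriceps RNA (RNeasy Mini columns) was made into libraries with Universal Plus mRNA-Seq reagents. The authors deposited 1 table of estimated counts per gene symbol. Build GRCm39 and, without their roles, R 4.2.2, Salmon 1.10.1, Trim Galore 0.6.7, cutadapt 3.4 and STAR 2.7.9a are named per the submitters' processing notes. The sources used here do not give the annotation or the strand setting. Columns were matched to mice by library name, and groups come from the sample labels.

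Estimated counts were rounded, filtered with filterByExpr (minimum count 10), scaled by TMM and tested over 14070 genes with the edgeR 4.0.16 quasi-likelihood test in R 4.3.3 (two-sided, group as the only term, Benjamini-Hochberg, threshold 0.05). Each SE is the fitted log2 difference over the root of its F value. CPM are scaled by TMM; log2 CPM used a prior count of 2. Ratios to Adipoq used counts plus 0.5 where logged. Transcript lengths are those of the longest principal transcript in GENCODE M21 (GRCm38), matched by symbol for all 10 genes. The fit was also run on simulated counts drawn independently for each gene. These hold no mouse that shifts many genes together, so they do not speak to the part of tumor mouse 2 or control mouse 4.

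The 10 genes and all lists were chosen with earlier results of these data known. Named list genes are the up to 4 past the threshold with the smallest p in each list, or up to 2 where none passed. The gene that rose in the lipolysis list is counted but not reported here. The genes named for likeness average 0 or more in log2 CPM and have no clone or predicted-gene symbol. Genes given besides these (Adipor1, Adipor2, Pparg, Lipe, Ucp1) were chosen after their values were seen. Lists overlap in a few genes. Alternatives were DESeq2 1.42.0, limma-voom (limma 3.58.1), scaling, filters, left-out libraries and a replicate block. No pair of replicates was alike within sampling noise, and each of the 8 counted as 1 replicate.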

Additional observations from a re-analysis of the deposited data

Results flagged for a closer look

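In 5 of 20 groups of 4 values tested (10 genes in 2 groups), 1 mouse lay far outside the other 3 of its group on the log2 CPM scale, and in each case it was tumor mouse 2. Chance flags about 1 in 20 groups, and these genes move together, so the 5 are not independent. For Plin1 tumor mouse 2 had 5.73, where the other tumor mice lay between 1.31 and 1.80. For Cidec it had 6.55, where the others lay between 1.39 and 2.07. For Cfd it had 8.95, against 4.66 to 5.34 in the others, for Retn 3.95, against 0.69 to 1.17, and for Lpl 9.69, against 6.13 to 6.69. Control mouse 4 did not pass the same limit for any of the 10 genes.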

How the results depend on the processing

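With all 8 libraries, 0 of the 10 genes were called in the edgeR fit, under the scaling and filter alternatives, by DESeq2 and by limma-voom. The count was 1 (Fabp4, adjusted p = 0.0263) with the replicate number as a block, and the left-out fits gave 0 to 4, the 4 without tumor mouse 2. It was 9 without control mouse 4 and tumor mouse 2 together. The count of changed genes over the whole table (2781) ranged from 1110 to 2845 with 1 library left out, with 1190 without tumor mouse 3, 1110 without control mouse 1 and 1373 without control mouse 2. Upper-quartile scaling moved the share of higher calls: 1169 higher and 1547 lower, against 1552 and 1229. Same-numbered mice deviated together by a correlation of 0.016 to 0.197, and 4 of 8 libraries correlated best with their own number. These values do not settle whether the numbers pair the mice, and the main fit did not use them as pairs. The block lowered the table's count to 1932 and the SE of Fabp4 from 0.59 to 0.23.

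The fitted Cidec value was -0.08 with upper-quartile scaling, -0.68 with limma-voom, -0.71 with the replicate block, -3.25 without both mice and -2.87 to 0.60 with 1 library left out. That of Lep ranged from -2.84 to 0.11. The ratios to Adipoq ranged from -0.36 to 0.42 for Lep, -0.0019 (without control mouse 4) to 0.16 for Cfd and -0.28 to 0.15 for Retn with 1 library left out, and none passed.

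The list counts were small and moved with most settings. The other adipocyte genes (2 changed) gave 4 with upper-quartile scaling, with no filter and with the stricter filter, 7 with DESeq2, 6 with the block, 18 without both mice and 0 to 12 with 1 library left out. The lipolysis list (2) gave 4 with upper-quartile scaling, with no filter, with the stricter filter and with limma-voom, 5 with DESeq2, 15 without both mice and 1 to 13 with 1 left out. The list around Lpl (4) gave 2 with limma-voom and with the block and 1 to 5 with 1 left out. The glycerolipid list (4) gave 8 without both mice and 1 to 6 with 1 left out, the adipogenic factors (6) gave 12 and 1 to 7, and the hormone receptors (2) gave 5, 1 with the block and 0 to 3. The brown and beige list (2) gave 3 with upper-quartile scaling and with the block, 1 with no filter, 4 with DESeq2, 6 without both mice and 0 to 7 with 1 left out. The muscle fibre list (1) gave 2 with DESeq2 size factors, upper-quartile scaling, no filter, the stricter filter and without both mice, 3 with limma-voom and with the block, 6 with DESeq2 and 0 to 5 with 1 left out. The endothelial list (5) gave 3 to 6, the fibro-adipogenic list (3) 2 to 3 and the macrophage list (1) 1 to 4 over all settings. The blood list (1) gave 0 to 3. Of 31 list genes that passed and met the naming rule, 11 kept the call without any single library. The cause of these shifts was not tested. Lep, with 2 and 3 counts in the lowest mice, is limited by depth, and the stricter filter did not test it.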
